A study of Homo sapiens with 23 samples.

Results

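Clone 9 and clone 13 are drug-resistant clones of 1 melanoma cell line that were raised on different drugs and yet had the most similar RNA of any such pair. Both descend from WM989 A6-G3, a line narrowed repeatedly to single cells from the BRAF-mutant human melanoma line WM989, and the labels give wild type as the genotype of all samples. Clone 9 is line WM989 A6-G3 I11, expanded from a colony that grew out under 1 µM vemurafenib and kept in that dose. Clone 13 is line WM989 A6-G3 E8, expanded from a colony that grew out under 250 nM dabrafenib with 2.5 nM trametinib and kept in both. Untreated WM989 A6-G3 cells had no drug and serve here only as a level to set the clones against. Each of these groups had 3 libraries of poly(A) RNA, called biological replicates in the labels without saying what separated them. The p-values and SE rest on the spread between libraries within groups, shared over all groups of the series, and that spread may be technical. The 6 libraries of clones 9 and 13 were taken from 23 libraries of 7 resistant clones and untreated cells. Each clone is 1 colony and each drug arm is here 1 clone, so drug and clone cannot be told apart in this pair.

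Vemurafenib and dabrafenib block the mutant BRAF kinase, and trametinib blocks MEK, the next kinase of the same cascade. The cascade ends in ERK, whose activity raises feedback genes such as the SPRY and DUSP families. Melanoma lines that grow through these drugs are known for low pigment-cell genes and for a mesenchymal-like program of matrix, cadherin and growth factor receptor genes. The series asks how resistant clones of 1 parental line differ from each other.

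The pair was chosen by its count of differing genes. A gene was called when limma gave a Benjamini-Hochberg adjusted p under 0.05 over 15657 genes and the log2 fold change, clone 9 minus clone 13, was at least 1 in size, a doubling on the log2(scaled TPM + 1) scale. By that rule 493 genes differed, 3.15% of the genes tested, with 228 higher (1.46%) and 265 lower (1.69%) in clone 9. This was the lowest count among the 12 pairs of clones from different arms, and clones 9 and 12 came next with 551 genes. Among all 21 pairs only clones 12 and 13, with 238 genes, and clones 10 and 12, with 392 genes, had fewer, and both pairs are within the dabrafenib and trametinib arm. Clone 9 differed from the other vemurafenib clones by more genes than from clone 13, with 772 genes against clone 7 and 792 against clone 8. These counts chose the pair and are a description.

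**Figure D1:**
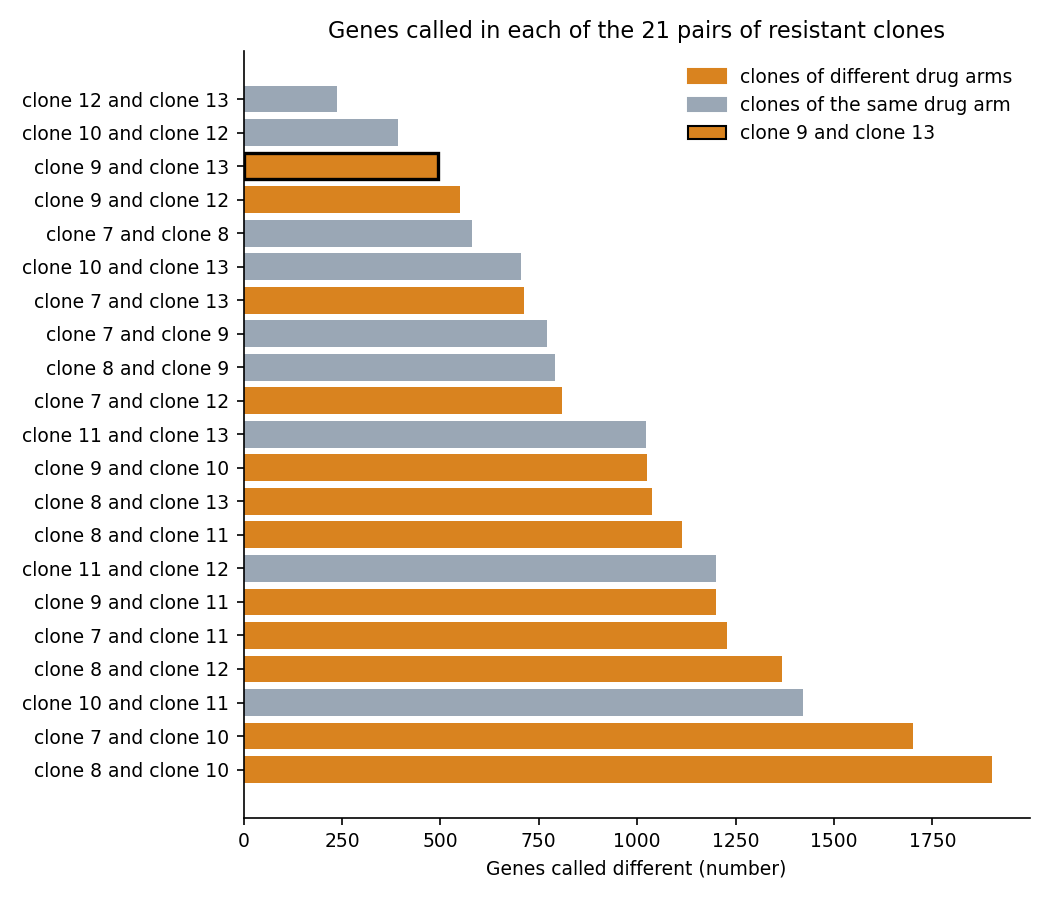
Horizontal bars give the number of genes called different (x axis) for each of the 21 pairs of resistant clones (y axis), in orange for clones of different drug arms and in grey for clones of the same arm. The outlined bar of clones 9 and 13 stands at 493 genes, below only 2 shorter bars, and the longest bar, of clones 8 and 10, at 1902.

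Most differences were small. The median size of the log2 fold change over all genes tested was 0.21, and over the called genes 1.36. Only 72 of the 493 called genes had a log2 fold change of at least 2 in size, and 383 reached 4 scaled TPM in the higher clone. The 3 libraries of clone 9 and the 3 of clone 13 did not overlap in 485 of the called genes (98.4%) and in 33.4% of all genes tested. Just inside the minimum stood APLP1 at -1.0004 and TMEM47 at 1.0014, and just outside stood PCGF2 at 0.9996, TRIM67 at -0.9982 and SIX2 at 0.9949. On leaving out each of the 6 libraries in turn, 301 of the 493 genes (61.1%) stayed called in all 6 fits, and the genes below that did not are named as such.

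All libraries summed to the same total as deposited, so sequencing depth is unknown. Scaling factors ran from 0.913 to 1.051 in clone 9 and from 0.997 to 1.056 in clone 13. Log2 levels over all tested genes correlated between libraries of clone 9 at Pearson's r of 0.982 to 0.993, between libraries of clone 13 at 0.981 to 0.983, and across the clones at 0.959 to 0.973. Genes are not independent replicates, and these values only describe the libraries. Replicate 2 of clone 9 stood apart from the other 2 libraries of its clone, with a root mean square deviation from the mean of its clone of 0.262, against 0.178 and 0.196 for the others on the log2 scale. Replicate 3 of clone 13 had the lowest summed level of immediate early genes, at 550 scaled TPM, with 1749 and 1527 in replicates 1 and 2, and those of clone 9 stood at 2032 to 2262.

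**Figure D2:**
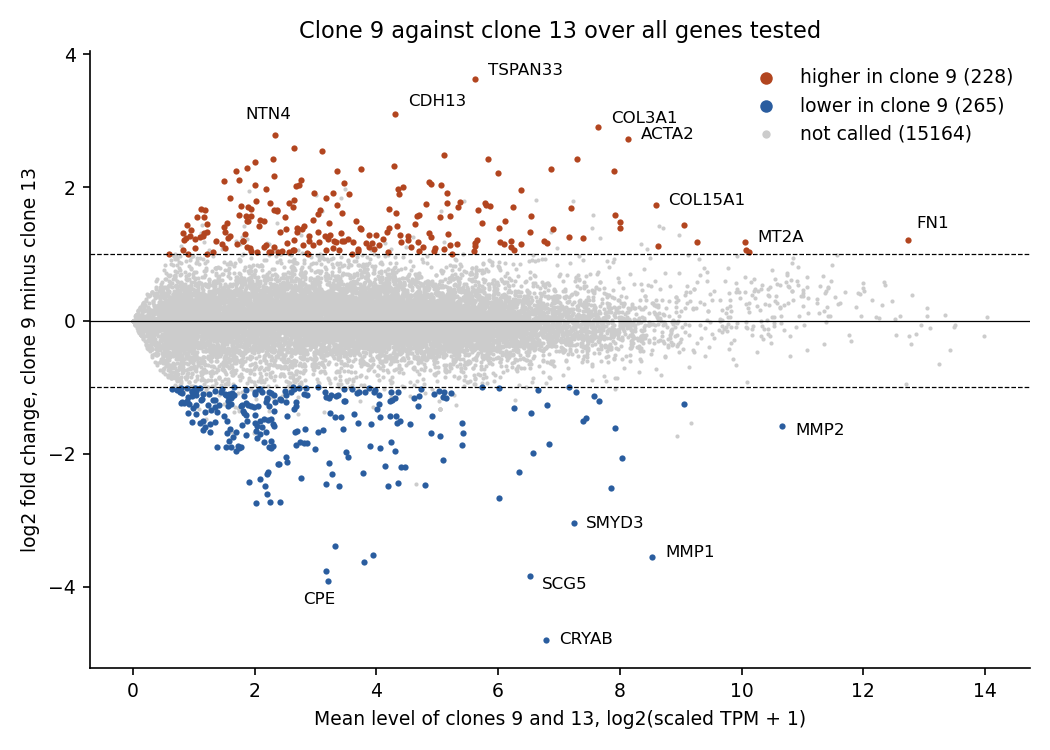
Each point is 1 of 15657 genes, placed by its mean level in clones 9 and 13 (x axis, log2(scaled TPM + 1)) and by its log2 fold change, clone 9 minus clone 13 (y axis). Dashed lines mark a log2 fold change of 1 and -1. The 228 genes called higher in clone 9 lie above and the 265 called lower lie below, and CRYAB at -4.80 and TSPAN33 at 3.63 are the farthest from 0.

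Both clones were far below untreated cells in pigment-cell genes. The summed level of 22 melanocyte genes was 728 to 831 scaled TPM in clone 9 and 873 to 1491 scaled TPM in clone 13, against 13660 to 14140 in untreated cells. No melanocyte gene was called between the clones, of 20 tested, and their median log2 fold change was -0.45, against -0.01 over all genes. The level in clone 13 varied more between libraries than the level in clone 9. PMEL, a protein of the melanosome, was 38.4, 36.9 and 33.2 scaled TPM in clone 9, 179, 46.6 and 31.2 in clone 13, against 10040, 9744 and 9801 in untreated cells. The 3 libraries of clone 13 spanned those of clone 9, and replicate 1 was the high one. MITF, the master transcription factor of melanocytes, was 22.8, 18.1 and 22.3 scaled TPM in clone 9 and 33.5, 49.0 and 39.6 in clone 13, with 111 to 132 in untreated cells. Its log2 fold change of -0.91 ± 0.17 (SE) passed the adjusted p, 0.0014, but not the minimum fold, and the libraries of the clones did not overlap. Without replicate 1 of clone 13 it was -1.04 with an adjusted p of 0.00113 and was called, the 1 melanocyte gene called there. SOX10, which specifies the neural crest lineage, was 0.546, 0.662 and 0.330 scaled TPM in clone 9 and 5.946, 1.604 and 0.9215 in clone 13, against 465 to 473 in untreated cells.

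AXL, EGFR and WNT5A, which are known for the drug-resistant state of melanoma, were not called between the clones. AXL, a receptor tyrosine kinase, averaged 67.9 ± 2.4 scaled TPM in clone 9 and 59.3 ± 19.4 in clone 13 (SD, n = 3 each), against 0.364 ± 0.070 in untreated cells. EGFR averaged 16.8 ± 3.2 in clone 9, 12.6 ± 3.0 in clone 13 and 0.506 ± 0.089 in untreated cells. The WNT5A ligand, linked to invasive melanoma, averaged 95.8 ± 18.2 in clone 9, 89.5 ± 29.4 in clone 13 and 0.3071 ± 0.1002 in untreated cells. The libraries of the 2 clones overlapped in each of these genes. NGFR, a neural crest receptor, was 0.675, 0.658 and 0.729 in clone 9 and 1.61, 2.13 and 1.83 in clone 13, without overlap. Its log2 fold change of -0.76 ± 0.25 had an adjusted p of 0.0612, and with a pseudocount of 0.1 it was -1.31 with 0.0203, a call. PDGFRA, another receptor of this state, was called and is given below. MKI67, a proliferation marker, was 25.98 to 29.8 in clone 9 and 22.99 to 32.6 in clone 13, and none of 38 cell cycle genes was called.

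TSPAN33, a tetraspanin of the plasma membrane, had the largest rise in clone 9. It was 85.7, 103 and 82.1 scaled TPM in clone 9, 5.16, 5.03 and 9.60 in clone 13, against 34.4, 31.1 and 31.1 in untreated cells. Clone 9 thus stood above untreated cells and clone 13 below them, with no overlap, and the log2 fold change between the clones was 3.63 ± 0.30. CDH13, an atypical cadherin held in the membrane by a lipid anchor, was 35.6, 30.2 and 37.4 scaled TPM in clone 9 and 2.21, 2.85 and 4.60 in clone 13 (log2 fold change 3.10 ± 0.37). GJA1, the gap junction protein connexin 43, was 14.4, 11.6 and 15.1 in clone 9 and 0.708, 1.54 and 2.61 in clone 13 (2.55 ± 0.21). ACTA2, smooth muscle actin, was 453, 516 and 476 in clone 9 and 137, 59.2 and 45.6 in clone 13 (2.72 ± 0.57), against 10.6 to 12.7 in untreated cells. In all 4 genes every library of clone 9 was above every library of clone 13, which the choice of the 12 largest rises required. The other genes among the 12 largest rises were COL3A1, NTN4, PRRX2, ITIH5, PCP4, CFI, TGM2 and SULF1, with log2 fold changes from 2.38 to 2.90.

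Collagen chains rose more often than they fell in clone 9. Of 23 tested, 6 were called higher (26.1%, against 1.46% of all genes) and 1 lower (4.35%, against 1.69%). The median log2 fold change was 0.29. COL3A1, the fibrillar chain of type III collagen, was 354, 344 and 346 scaled TPM in clone 9, 32.2, 35.9 and 82.2 in clone 13, against 0.0676, 0.238 and 0.307 in untreated cells (2.90 ± 0.33 between the clones). COL15A1, a chain of the basement membrane zone, was 631, 499 and 639 in clone 9 and 184, 198 and 150 in clone 13 (1.73 ± 0.23). COL5A1 and COL5A3, chains of type V collagen, were also called higher at 1.24 and 1.05, and COL5A3 was 0.90 and not called without replicate 3 of clone 13. The fibrillar partners COL1A1 and COL1A2, which assemble into type I collagen, had opposite signs. COL1A1 averaged 3998 ± 299.8 scaled TPM in clone 9 and 2067 ± 541 in clone 13, with a log2 fold change of 0.98 ± 0.24 under the minimum that passed it without replicate 3 of clone 13 (1.19) or of clone 9 (1.03). COL1A2 was 110, 128 and 106 in clone 9 and 259, 315 and 525 in clone 13 (-1.61 ± 0.45). Its call did not hold without any 1 of 5 libraries, replicates 1, 2 and 3 of clone 9 and replicates 2 and 3 of clone 13, where its log2 fold change ran from -1.69 to -1.32 with adjusted p of 0.0553 to 0.115.

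COL4A1 and COL4A2, the chains of the common type IV collagen of basement membranes, lie head to head on chromosome 13 and share a promoter. COL4A1 was 34.0, 27.3 and 33.1 scaled TPM in clone 9 and 5.04, 6.80 and 10.8 in clone 13 (1.98 ± 0.48), and COL4A2 was 94.9, 78.8 and 92.3 in clone 9 and 21.2, 28.5 and 29.6 in clone 13 (1.72 ± 0.46). Neither reached 0.3 scaled TPM in any untreated library. No library of clone 9 overlapped with clone 13 in either gene. Without replicate 1 of clone 13 both calls were lost, at 1.755 with an adjusted p of 0.0502 for COL4A1 and 1.57 with 0.0684 for COL4A2, and that of COL4A2 was also lost without replicate 1 or 3 of clone 9, at 1.67 and 1.69. With a pseudocount of 0.1 neither was called, at 2.11 with an adjusted p of 0.129 for COL4A1 and 1.75 with 0.152 for COL4A2. The sequence between the starts is shown because the 2 genes moved together: in RefSeq (GRCh38.p14) the starts are 127 bases apart and the windows of 250 bases before to 50 bases after each start share 226 bases. The COL4A1 window, chr13:110307108-110307407 on the minus strand, reads 5′ to 3′ toward COL4A1:
COL4A1: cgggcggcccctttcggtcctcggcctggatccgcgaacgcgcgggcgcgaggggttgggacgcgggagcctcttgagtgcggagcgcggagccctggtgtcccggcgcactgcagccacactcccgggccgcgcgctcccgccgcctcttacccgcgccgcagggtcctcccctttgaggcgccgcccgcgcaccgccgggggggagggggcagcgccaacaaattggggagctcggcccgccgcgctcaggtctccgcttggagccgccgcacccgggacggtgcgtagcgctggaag
No letters are in capitals, since no motif was searched in it, and the COL4A2 window covers most of it on the other strand.

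Other matrix and adhesion genes followed. Of 27 matrix glycoproteins and proteoglycans listed and tested, 4 were called higher in clone 9 (14.8%, against 1.46% of all genes) and none lower. The count covers the listed members only, and DPT, a matrix gene outside the list, was called lower, as given below. The median log2 fold change of the 27 was 0.33. FN1, fibronectin, stood among the most abundant messages of both clones at 9311, 10540 and 8726 scaled TPM in clone 9, 4817, 4617 and 3116 in clone 13, and 223 to 251 in untreated cells (1.21 ± 0.19). EMILIN1, an elastic fibre protein, was 43.6, 55.9 and 40.8 in clone 9 and 10.7, 9.44 and 11.2 in clone 13 (2.05 ± 0.25), and MGP, matrix Gla protein, averaged 46.3 ± 12.5 in clone 9 and 10.2 ± 2.5 in clone 13 (2.07 ± 0.44). Of 16 cadherins listed and tested, 5 were called higher (31.2%, against 1.46% of all genes) and none lower. The 5 were CDH13, PCDH18, CDH6, CDH2 and PCDH7. Outside the list, CDH9 (-1.77) and the protocadherin PCDHGC5 (-1.05) were called lower, so the count covers the listed members only. The PCDHGC5 call was lost without replicate 1 or 2 of clone 13, at -0.87 and -0.85. CDH2, N-cadherin of mesenchymal cells, was 21.4, 17.2 and 21.2 in clone 9 and 9.80, 8.08 and 7.24 in clone 13, and untreated cells lay between at 12.8 to 12.96. The call of PCDH7 was lost without replicate 1 or 3 of clone 9 or replicate 3 of clone 13, at 0.95, 0.99 and 0.95.

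Among matrix proteases more genes were lower in clone 9 than higher. Of 28 proteases, inhibitors and crosslinking enzymes tested, 5 were called lower in clone 9 (MMP1, MMP2, MMP3, LOXL1 and ADAMTS12) and 2 higher (PLAT and ADAM19), with a median of -0.08. The shares were 17.9% lower and 7.14% higher, against 1.69% and 1.46% of all genes. MMP1, interstitial collagenase, was 41.1, 41.8 and 43.6 scaled TPM in clone 9, 1380, 539 and 174 in clone 13, and 4.48 to 5.31 in untreated cells (-3.56 ± 0.66). The 3 libraries of clone 13 spread widely, and without replicate 1 of clone 13 the log2 fold change was -2.83, still called. MMP2, a gelatinase, was 791, 759 and 834 in clone 9 and 3052, 2640 and 1703 in clone 13 (-1.59 ± 0.23). MMP3, stromelysin, next to MMP1 on chromosome 11, was at most 1.28 in clone 9 and 13.7, 12.4 and 5.34 in clone 13 (-2.36 ± 0.31). LOXL1, which crosslinks elastin, was 1.27, 1.11 and 1.03 in clone 9 and 9.30, 8.45 and 7.36 in clone 13 (-2.13 ± 0.24). Inhibitors TIMP1, TIMP2 and TIMP3 were not called. TIMP1 stood just under the minimum at 0.93.

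Genes of TGF-beta and BMP signaling had the most calls of any list, all in 1 direction. Of 29 tested, 9 were called higher in clone 9 and none lower (31.0% against 3.15% of all genes), 25 had a positive log2 fold change, and the median was 0.85. With a pseudocount of 5, 5 were called. The largest rise was of ID4, given below, and 4 secreted ligands were called. INHBA, the chain that forms activin A, was 94.8, 135 and 82.7 scaled TPM in clone 9, 21.2, 19.0 and 23.6 in clone 13, and at most 0.25 in untreated cells (2.21 ± 0.27). BMP4 was 3.78, 4.44 and 5.02 in clone 9 and 0.154, 0.411 and 0.191 in clone 13 (2.11 ± 0.14), and GDF6, another ligand of the BMP family, was 7.47, 6.32 and 7.45 in clone 9 and 0.350, 0.590 and 1.70 in clone 13 (2.17 ± 0.45). BMP2 averaged 2.33 in clone 9 and 0.328 in clone 13 and was called higher (1.33). TGFB1 had a log2 fold change of 0.93, under the minimum, and TGFB2 of -0.91 with overlapping libraries.

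Among the other components, the receptor TGFBR1 (1.05), the latent binding protein LTBP3 (1.25), the inhibitory SMAD6 (1.33) and the target ID2 (1.20) were called higher. The TGFBR1 call was lost without replicate 1 of clone 9 or replicate 3 of clone 13, at 0.98 and 0.90, and that of ID2 without replicate 2 of clone 9 or replicate 3 of clone 13, at 1.15 and 0.84. ID4, a dominant-negative helix-loop-helix factor induced by BMP, was 22.0, 18.9 and 21.2 scaled TPM in clone 9, 7.67, 2.97 and 1.63 in clone 13, against 9.46, 8.31 and 8.58 in untreated cells (2.27 ± 0.45 between the clones). All 3 libraries of clone 9 were above untreated cells and all 3 of clone 13 below. ID1 at 1.11 and BMP7 at 1.28 missed the adjusted p, with 0.0576 and 0.0617. Of 34 members of WNT signaling listed, 23 were tested and 2 called, SFRP4 higher and NKD2 lower, and of 11 Notch genes the receptor NOTCH3 (2.02 ± 0.36) and the target HEY1 (2.24 ± 0.39) were called higher. The shares called were 8.7% of WNT genes and 18.2% of Notch genes, against 3.15% of all genes. HEY1 was 16.9, 15.3 and 15.1 in clone 9 and 2.67, 2.55 and 2.40 in clone 13, both far under the 52.8 to 54.1 of untreated cells. The NKD2 call was lost without any 1 of 5 libraries, all but replicate 1 of clone 13, with values from -1.46 to -0.75 over all 6 omissions.

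Of 26 mesenchymal transcription factors tested, 6 were called higher in clone 9 (23.1%, against 1.46% of all genes) and none lower. Their median was 0.56. PRRX2, a paired-type homeobox factor of limb and face mesenchyme, was 8.85, 10.8 and 9.53 scaled TPM in clone 9 and 0.5162, 0.5809 and 1.302 in clone 13 (2.60 ± 0.22). NR2F1, an orphan nuclear receptor, was 52.7, 56.8 and 52.6 in clone 9 and 13.5, 15.9 and 15.98 in clone 13 (1.77 ± 0.11). SOX4 (1.57), NR2F2 (1.19) and TWIST2 (1.01) were also called higher, and TWIST2 was lost without replicate 3 of clone 9 or replicate 1 of clone 13, at 0.97 and 0.67. PITX1, a hindlimb homeobox factor, was 115, 131 and 112 in clone 9 and 6.80, 48.0 and 76.2 in clone 13, with a log2 fold change of 1.96 ± 0.54 that dropped to 0.96 without replicate 1 of clone 13 and was not called there, without any 1 library of clone 9 or with only the 6 libraries (adjusted p 0.164).

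**Figure D3:**
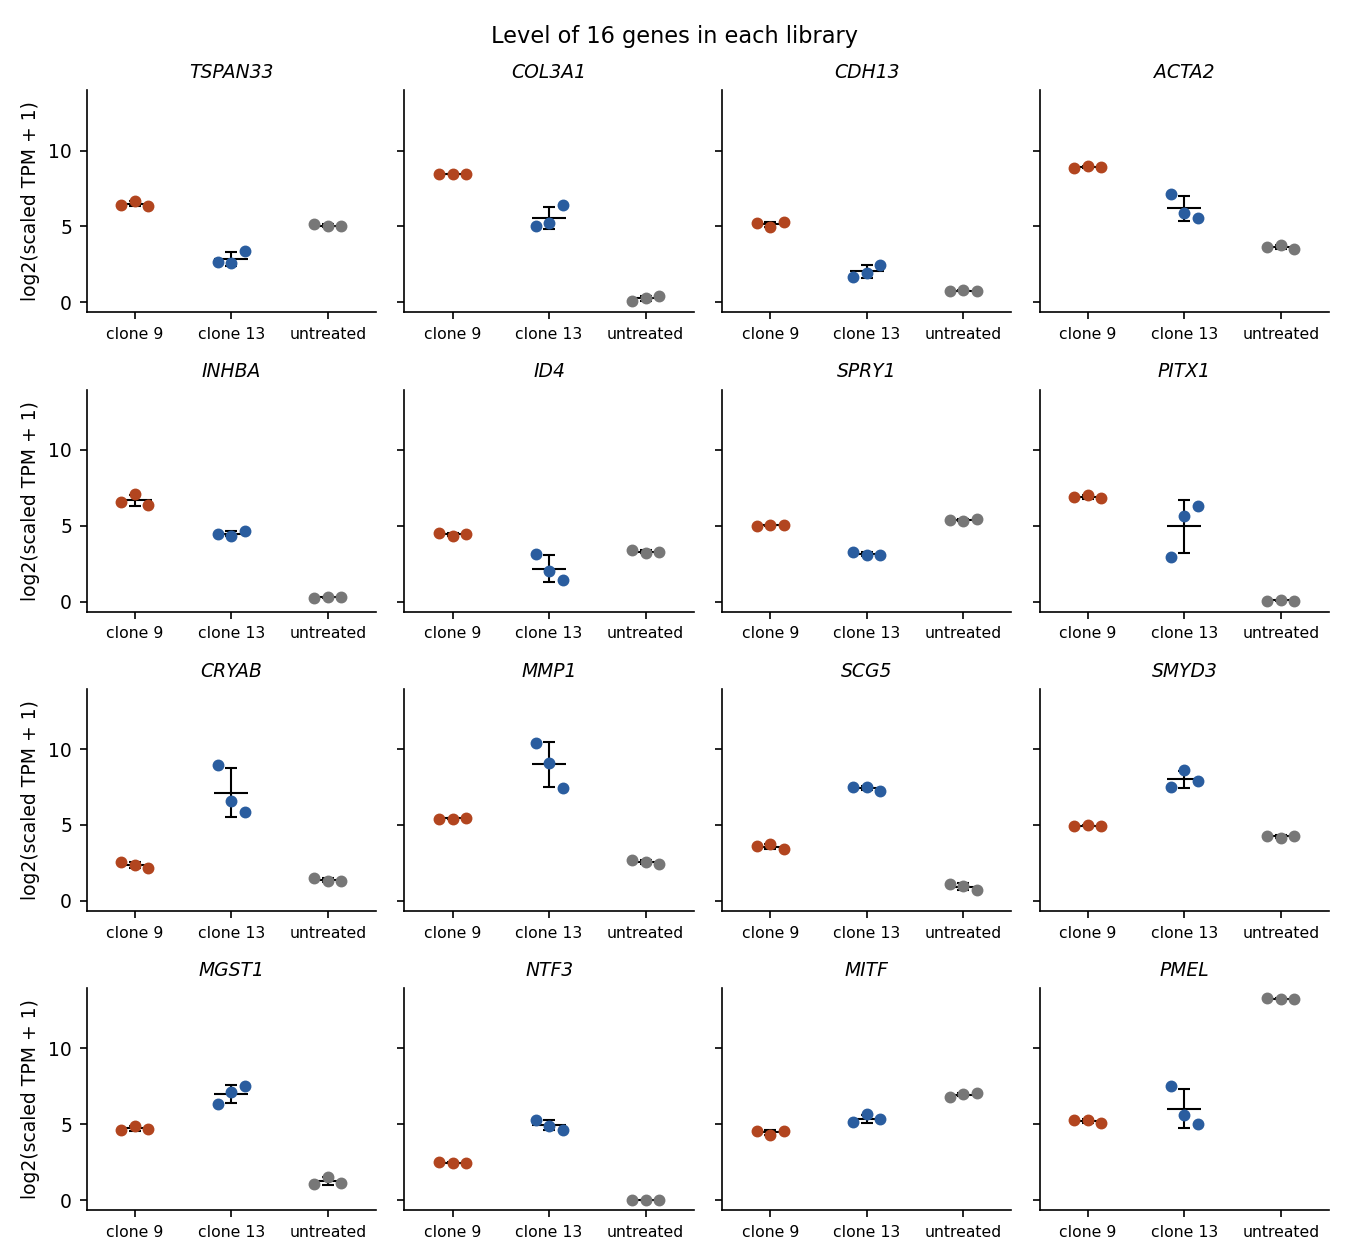
Each panel is 1 gene, with the level of every library as a coloured point (y axis, log2(scaled TPM + 1)) in clone 9, clone 13 and untreated cells (x axis), and black bars for the mean ± SD of 3 libraries. The points of clone 9 lie close together, while those of clone 13 spread in PITX1, CRYAB, MMP1 and PMEL. MITF and PMEL are far lower in both clones than in untreated cells.

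Growth factors and their receptors split. PDGFRA, the receptor of PDGF and a marker of fibroblasts, was 88.6, 73.8 and 88.3 scaled TPM in clone 9, 16.77, 27.44 and 29.01 in clone 13 and 0.773 to 1.20 in untreated cells (1.77 ± 0.21). PDGFD, a ligand of the PDGF family, was 15.5, 14.6 and 15.2 in clone 9 and 2.64, 4.62 and 6.11 in clone 13 (1.61 ± 0.37). HGF, the ligand of MET, was 57.2, 54.1 and 59.2 in clone 9 but 3.68, 19.0 and 49.2 in clone 13. Its log2 fold change of 1.79 ± 0.55 was lost without any 1 of 5 libraries, all but replicate 3 of clone 13, with a lowest value of 0.87 without replicate 1 of clone 13, and with only the 6 libraries (adjusted p 0.19). On the other side stood NTF3, a neurotrophin, at 4.62, 4.38 and 4.44 in clone 9 and 37.7, 29.02 and 23.68 in clone 13 (-2.48 ± 0.19), with at most 0.0145 in untreated cells. GAS6, the ligand of AXL, was 3.64, 3.47 and 3.46 in clone 9 and 14.3, 16.9 and 19.8 in clone 13 (-1.98 ± 0.16). ROR2, a receptor of WNT5A, was 1.05, 0.701 and 0.921 in clone 9 and 5.28, 10.0 and 7.65 in clone 13 (-2.16 ± 0.25). In all of these genes the libraries of the clones did not overlap. AXL and WNT5A, the partners of GAS6 and ROR2, were not called.

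Of 20 output genes of the ERK cascade tested, 3 were called higher in clone 9, none lower and 17 not called. The share called higher was 15%, against 1.46% of all genes, and the median log2 fold change was 0.21. The medians of the libraries overlapped, at 0.16, 0.03 and 0.23 in clone 9 and -0.27, 0.07 and -0.20 in clone 13 relative to the mean of the 6 libraries, and with a pseudocount of 5 only 1 gene was called. SPRY1, a feedback inhibitor of receptor signaling, was 30.9, 31.9 and 32.5 scaled TPM in clone 9, 8.77, 7.26 and 7.30 in clone 13, and 38.3 to 41.97 in untreated cells (1.90 ± 0.18). SPRY4, its relative, was 10.2, 8.27 and 10.5 in clone 9, 4.15, 4.37 and 3.09 in clone 13 and 35.6 to 43.9 in untreated cells (1.13 ± 0.20). DUSP6, the phosphatase of ERK, was 167, 117 and 194 in clone 9, 74.5, 112 and 27.6 in clone 13 and 114 to 133 in untreated cells. Its log2 fold change of 1.33 ± 0.48 had an adjusted p of 0.0843, and without replicate 2 of clone 13 it was 1.76 with 0.0406. EPHA4 was called higher (1.11) but not without replicate 1 or 2 of clone 13, at 0.77 and 0.98, nor when only the 6 libraries were fitted (adjusted p 0.116). None of 18 genes of the RAS, RAF, MEK and ERK chain itself was called, and 1 was with a pseudocount of 0.1. Immediate early genes had a median of 0.53 with EGR2 called higher (1.18) and BATF lower (-1.12), beside the low sum in replicate 3 of clone 13 given above, whose part in these values was not tested. FOS was 571, 429 and 643 in clone 9 and 430, 381 and 53.1 in clone 13 and was not called, and the EGR2 call was lost on leaving out any 1 of the 6 libraries, with values from 0.87 to 1.35.

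The largest falls in clone 9 were of genes with mixed roles. CRYAB, a small heat shock chaperone, was 4.75, 4.03 and 3.37 scaled TPM in clone 9, 496, 94.3 and 56.1 in clone 13, and 1.42 to 1.81 in untreated cells. Its log2 fold change of -4.80 ± 0.61 was the largest of all called genes, and without replicate 1 of clone 13 it was -3.88. CPE and SCG5 belong to the regulated secretory pathway, in which CPE trims prohormones and SCG5 is the chaperone of a prohormone convertase. CPE was 0.153, 0.172 and 0.101 in clone 9 and 16.4, 17.3 and 15.1 in clone 13 (-3.92 ± 0.31), with 0.404 to 0.575 in untreated cells. SCG5 was 11.1, 12.1 and 9.66 in clone 9 and 182, 177 and 152 in clone 13 (-3.84 ± 0.47), with 0.631 to 1.19 in untreated cells. SMYD3, a lysine methyltransferase on chromosome 1, was 29.1, 31.5 and 29.9 in clone 9, 181, 390 and 239 in clone 13, and 16.8 to 18.6 in untreated cells (-3.05 ± 0.28). In these 4 genes clone 13 was above both other groups.

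The other genes among the 12 largest falls were AC226119.4, UGT1A10, FCAR, CT45A5, CT45A6, DPT, VSTM2B and MMP1. UGT1A10 is a glucuronosyltransferase whose last exons are shared by a family, and CT45A5 and CT45A6 are near-identical copies on the X chromosome, so the division of reads within each family is uncertain. UGT1A10 was 1.34, 0.982 and 0.941 scaled TPM in clone 9 and 24.3, 25.7 and 24.1 in clone 13 (-3.63 ± 0.14). Of 13 cancer-testis antigens listed and tested, which are germline genes that tumours switch on, 4 were called lower in clone 9 and none higher. The 4, 30.8% against 1.69% of all genes, were CT45A5, CSAG1, MAGEA12 and MAGEA1. The count covers the listed members only. Outside the list, MAGEB6 was called higher (1.26), and CT45A6 (-2.73) and CT45A2 (-1.23) were among those called lower. The MAGEA1 call was lost without replicate 3 of clone 13, at -0.91. DPT, dermatopontin of the dermal matrix, was at most 0.0652 in clone 9 and 7.22, 6.26 and 4.68 in clone 13 (-2.74 ± 0.15). Among markers of fibroblasts 4 of 9 were called higher (COL3A1, PDGFRA, PDPN and DCN) and 3 lower (DPT, COL1A2 and S100A4). The shares were 44.4% and 33.3%, against 1.46% and 1.69% of all genes. The DCN call was lost without replicate 3 of clone 9 or replicate 3 of clone 13, at 1.11 and 1.07, and that of S100A4 without replicate 1 or 3 of clone 9 or replicate 3 of clone 13, at -1.11, -1.01 and -0.96.

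Of 33 defence genes against oxidants and electrophiles tested, 3 were called lower in clone 9 and none higher, 26 had a negative log2 fold change, and the median was -0.34. The share called lower was 9.09%, against 1.69% of all genes. Without replicate 3 of clone 13, 6 were called. MGST1, a microsomal glutathione transferase, was 23.01, 28.98 and 24.82 scaled TPM in clone 9 and 79.8, 141 and 182 in clone 13 (-2.27 ± 0.33), with 1.06 to 1.92 in untreated cells. GSTM3, a cytosolic glutathione transferase, was 3.69, 5.20 and 4.04 in clone 9 and 14.1, 14.2 and 18.2 in clone 13 (-1.64 ± 0.26). AKR1C3, an aldo-keto reductase with close relatives, was 6.32, 8.11 and 5.30 in clone 9 and 54.0, 31.4 and 21.7 in clone 13 (-2.20 ± 0.53), and without replicate 1 of clone 13 it was -1.86 with an adjusted p of 0.0529. ABCB5, a membrane transporter, was 1.96, 2.19 and 2.15 in clone 9 and 11.0, 12.8 and 7.23 in clone 13 (-1.84 ± 0.44), and untreated cells had 11.9 to 12.4. None of 26 cholesterol synthesis genes was called, with 23 negative and a median of -0.45.

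Complement genes moved both ways, with 3 of 16 called higher (CFI, C4A and C4B) and 2 lower (C3 and SERPING1). The shares were 18.8% and 12.5%, against 1.46% and 1.69% of all genes. CFI, the protease that cleaves activated complement, was 97.2, 87.3 and 102 scaled TPM in clone 9, 20.5, 14.9 and 15.9 in clone 13 and at most 0.203 in untreated cells (2.42 ± 0.34). C3, the central component, was 3.36, 4.05 and 2.97 in clone 9 and 29.6, 23.5 and 12.7 in clone 13 (-2.29 ± 0.30), with 1.73 to 3.22 in untreated cells. C4A and C4B were called higher at 1.22 and 1.92, and as near-identical neighbours their reads may be divided between them. The C4A call was lost on leaving out any 1 library, with values from 1.02 to 1.38. Of 43 interferon-responsive genes tested, 2 were called each way, IFITM1 (1.39) and MX2 (1.29) higher and OASL (-1.13) and IFIT2 (-1.07) lower. The share was 4.65% each way, against 1.46% higher and 1.69% lower of all genes. The call of MX2 was lost without replicate 1 of clone 13 (0.76) and when only the 6 libraries were fitted (adjusted p 0.1), and that of OASL without replicate 3 of clone 13 (-0.93). The call of IFIT2 was lost on leaving out any 1 library other than replicate 1 of clone 13, nearest to 0 at -0.72 without replicate 2 of clone 13, and with only the 6 libraries (adjusted p 0.169).

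**Figure D4:**
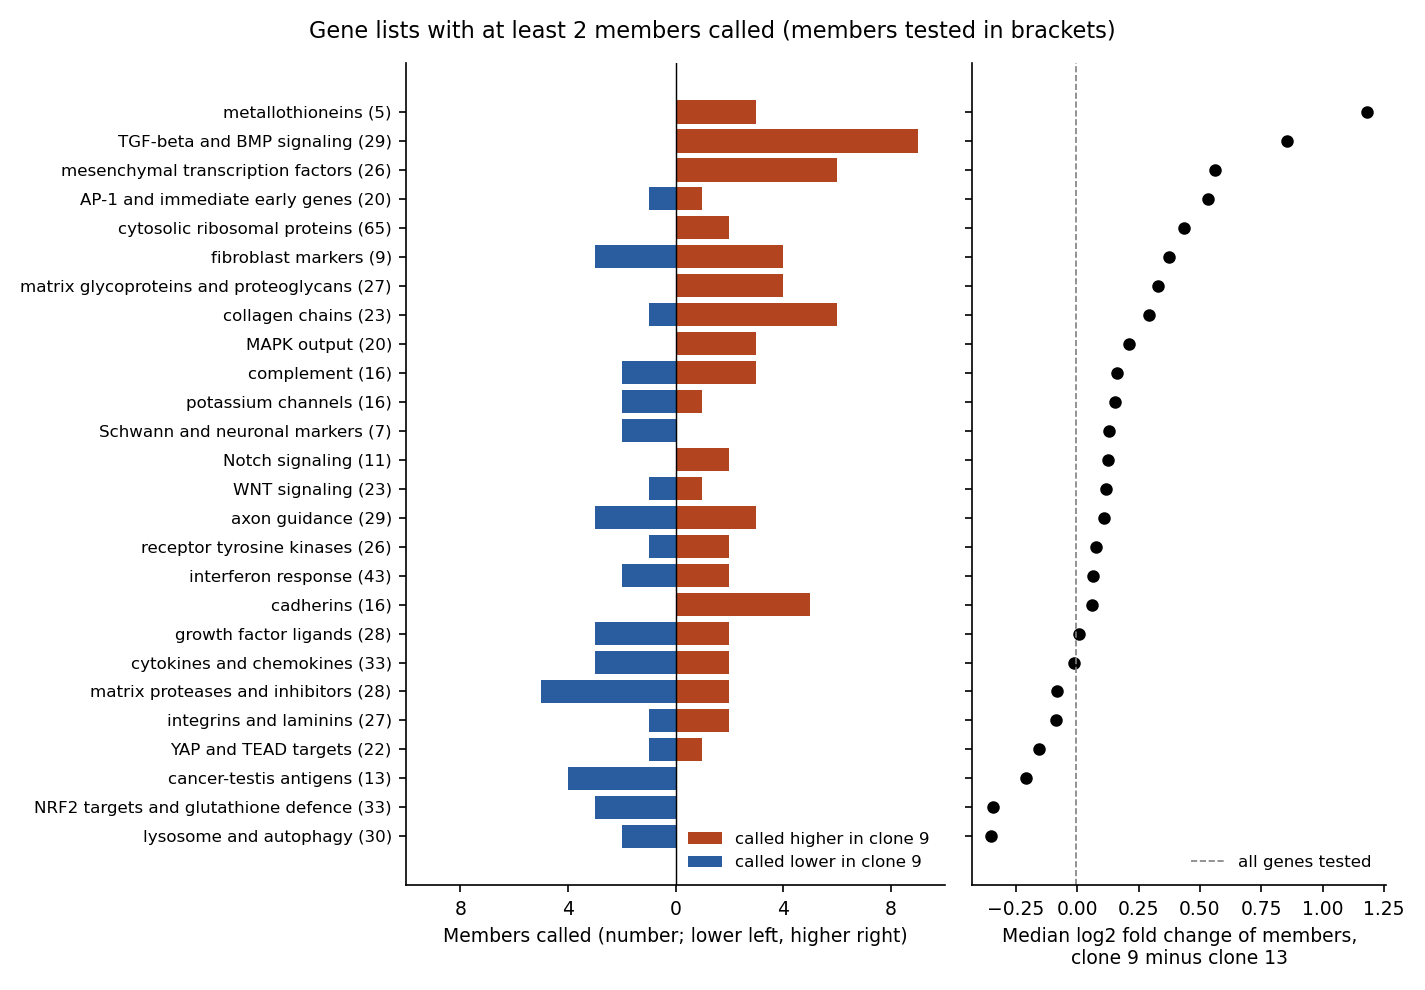
Gene lists (y axis, members tested in brackets) with at least 2 members called: bars to the right count members called higher in clone 9 and bars to the left those called lower (left panel, number of genes), and points give the median log2 fold change of all tested members (right panel, clone 9 minus clone 13). TGF-beta and BMP signaling has 9 genes higher and none lower, and matrix proteases have 2 higher and 5 lower. The dashed line is the median of all genes tested, -0.01.

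Metallothioneins are small cysteine-rich proteins that bind zinc and copper. Of the list of 12, which also holds the zinc transporters SLC30A1 and SLC39A10, 5 genes passed the filter on low values, and the 3 metallothioneins among them, MT1F, MT1X and MT2A, were called higher in clone 9. The share of the 5 called higher was 60%, against 1.46% of all genes. MT2A was 1204, 1969 and 1282 scaled TPM in clone 9, 805, 478 and 673 in clone 13 and 294 to 380 in untreated cells (1.18 ± 0.27). MT1X was 317, 467 and 346 in clone 9, 142, 92.9 and 175 in clone 13 and 45.0 to 58.4 in untreated cells (1.49 ± 0.30), and MT1F was 8.87, 14.7 and 10.6 in clone 9 and 1.71, 1.99 and 3.10 in clone 13 (1.92 ± 0.30). No library overlapped between the clones, with replicate 2 of clone 9 the highest and replicate 2 of clone 13 the lowest library for MT2A and MT1X. Without replicate 2 of clone 9 MT2A was 0.96, and without replicate 2 of clone 13 it was 0.98, both under the minimum. The family has similar short messages, and reads may be divided between its members. These genes respond to metals through the factor MTF1, which binds repeated metal response elements, and the promoters of MT1X and MT2A are shown because the genes moved together. They are RefSeq windows (GRCh38.p14, plus strand) at chr16:56682220-56682519 and chr16:56608334-56608633, 5′ to 3′, with capitals on each match to the core TGCACNC or TGCGCNC on either strand:
MT1X: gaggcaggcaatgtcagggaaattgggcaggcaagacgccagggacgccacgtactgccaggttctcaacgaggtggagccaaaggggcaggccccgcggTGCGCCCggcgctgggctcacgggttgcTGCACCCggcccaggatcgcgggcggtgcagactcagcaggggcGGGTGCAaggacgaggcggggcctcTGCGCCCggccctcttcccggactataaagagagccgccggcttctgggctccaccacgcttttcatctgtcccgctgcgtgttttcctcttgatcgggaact
MT2A: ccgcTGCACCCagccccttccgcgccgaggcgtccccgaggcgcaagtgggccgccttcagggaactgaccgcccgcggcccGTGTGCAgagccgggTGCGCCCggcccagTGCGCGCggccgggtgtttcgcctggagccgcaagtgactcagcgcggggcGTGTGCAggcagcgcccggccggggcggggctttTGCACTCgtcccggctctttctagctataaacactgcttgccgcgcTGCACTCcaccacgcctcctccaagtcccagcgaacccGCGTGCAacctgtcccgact
The MT1X window held 4 matches and the MT2A window 8. Of 27305 promoter windows, 29.3% held at least 1 match and 2.27% at least 3, and among the 10208 genes tested with a window the shares were 38.2% and 3.21%. They were 33.3% and 4.40% of 159 genes called higher in clone 9, and 39.6% and 3.05% of 164 called lower, so a match was less frequent among the genes called higher than among all genes tested, with no test made. A match is only these letters in this window.

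Of 65 ribosomal protein genes tested, 62 had a positive log2 fold change with a median of 0.44. Their medians by library were 0.06, 0.47 and 0.10 in clone 9 and -0.12, -0.36 and -0.20 in clone 13, with replicate 2 the farthest from 0 in both clones, and without replicate 2 of clone 9 the median log2 fold change was 0.33. Only 2 were called (3.08%, against 3.15% of all genes), RPL7A (1.07 ± 0.16) and RPL23 (1.02 ± 0.20). RPL7A was 1341, 1607 and 1430 scaled TPM in clone 9, 754, 616 and 721 in clone 13 and 1821 to 1933 in untreated cells. The 65 genes made up 15.7 ± 1.3% of the deposited total in clone 9, 12.2 ± 0.67% in clone 13 and 18.5 ± 0.86% in untreated cells (SD, n = 3 each), and the part of this share in other results was not tested. Both calls were lost without replicate 2 of either clone, where RPL7A was 0.995 (clone 9) and 0.98 (clone 13) and RPL23 was 0.885 and 0.91. With the values as deposited RPL23 was 0.97 and not called. The share of mitochondrially encoded messages was 11.1 ± 0.37% in clone 9, 12.2 ± 1.1% in clone 13 and 20.9 ± 0.31% in untreated cells. Since these are bulk cultures, fewer cells in a state and less RNA per cell cannot be told apart.

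Markers of some other cell types were low in both clones and those of others were not, and their part in the results was not tested. Of 7 keratinocyte genes 6 were under 1 scaled TPM in all 6 libraries, with sums of 15.9 to 19.0 in clone 9 and 12.1 to 16.5 in clone 13. Endothelial genes summed to 4.46 to 4.94 in clone 9 and 4.74 to 6.46 in clone 13. Immune genes summed to 267 to 329 in clone 9 and 401 to 641 in clone 13, nearly all from CD68, a lysosomal protein at a mean of 288 in clone 9, 487 in clone 13 and 159 in untreated cells, and 6 of the 10 were under 1. Fibroblast markers summed to 1151 to 1224 in clone 9, 802 to 1057 in clone 13 and 55.2 to 65.8 in untreated cells. Schwann and neuronal genes summed to 476 to 507 in clone 9, 391 to 548 in clone 13 and 1573 to 1698 in untreated cells, and PMP22, a myelin protein, had the largest part of that sum in both clones, with a mean of 259 in clone 9 and 239.7 in clone 13. Among them S100B, a calcium-binding protein, was called lower, at 1.84, 2.01 and 0.920 in clone 9, 33.1, 13.6 and 4.85 in clone 13 and 709.8 to 810.2 in untreated cells (-2.49 ± 0.64). The clones did not overlap, and the call was lost without replicate 3 of clone 9 or replicate 1 of clone 13, at -2.29 and -1.86.

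By the order of mean log2 levels alone, whatever the size of the gap, most differing genes stood above untreated cells in both clones. Untreated cells were below both clones in 326 of the 493 called genes (66.1%, against 42.3% of all genes tested), above both in 70 (14.2%, against 42.6%) and between them in 97 (19.7%, against 15.1%). Of the 228 genes called higher in clone 9, 173 were called above untreated cells in clone 9 and 84 in clone 13, while 9 were called below in clone 9 and 34 in clone 13. Of the 265 called lower in clone 9, 74 were called above untreated cells in clone 9 and 188 in clone 13, while 60 were called below in clone 9 and 30 in clone 13. By calls, then, at most 84 of the 228 and 74 of the 265 genes were above untreated cells in both clones. Over all genes tested, 19.7% were called between clone 9 and untreated cells and 20.6% between clone 13 and untreated cells. These comparisons share the untreated libraries and part of them was fixed by the choice of genes, so they are given side by side only.

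The other 5 clones gave a range to place both against. The 493 genes were picked for a gap between clones 9 and 13, which by itself makes a mean outside the range more likely. The shares below are therefore a description. In 175 of the 493 genes (35.5%, against 17.2% of all genes) the mean of clone 9 lay outside the range of clones 7, 8, 10, 11 and 12 while that of clone 13 lay inside. The reverse held for 104 genes (21.1%, against 11.9%), both were inside for 162 (32.9%, against 63.3%) and both outside for 52 (10.5%, against 7.70%). Of the 228 genes higher in clone 9, clone 9 alone was outside in 114 (50.0%), and of the 265 lower in clone 9, clone 13 alone was outside in 88 (33.2%). COL3A1 is an example of the first kind, with a mean of 348 scaled TPM in clone 9 and 50.1 in clone 13, where the means of the other 5 clones ran from 10.3 to 115. CPE is an example of the second, with a mean of 0.142 in clone 9 and 16.3 in clone 13, where the other 5 clones ran from 0.0329 to 11.7. Both clones were outside for COL15A1, with a mean of 589.5 in clone 9 and 177 in clone 13, both above the 20.0 to 128 of the other 5 clones.

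Whether these genes also differ by drug arm was tested in the 5 clones that did not enter the pair. The means of clones 7 and 8, on vemurafenib, were compared with those of clones 10, 11 and 12, on dabrafenib and trametinib, with the clone as the unit. Limma called 0 of 15657 genes at the same thresholds, with 2366 (15.1%) at an unadjusted p under 0.05, and 128 genes were called when clone 11 was left out. Among the 493 genes, 101 (20.5%) had an unadjusted p under 0.05, and the lowest adjusted p was 0.209. The sign was the same as in the pair for 308 (62.5%), against 54.6% of all genes tested, and 73 genes (14.8%) had the same sign and an unadjusted p under 0.05, against 1501 of all genes tested (9.59%). The share of equal signs ran from 58.2% to 68% on leaving out each of the 5 clones.

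Several genes described above stood among those 73, none past the adjusted p. NTN4, a secreted guidance protein of the netrin family, was 8.51, 6.53 and 8.20 scaled TPM in clone 9 and 0.104, 0.244 and 0.469 in clone 13, and its clone means were 13.99 in clone 7 and 13.7 in clone 8, against 0.0598, 1.28 and 0.261 in clones 10, 11 and 12 (log2 fold change 3.38, unadjusted p 6.68e-05, adjusted p 0.209). BMP4 had means of 6.75 and 12.3 in clones 7 and 8 and 0.109, 0.0654 and 0.682 in clones 10, 11 and 12 (3.02, unadjusted p 0.000136). MT1X had means of 324 and 304 in clones 7 and 8 and 121, 113 and 109 in clones 10, 11 and 12 (1.43, unadjusted p 5.34e-05). CDH13 had means of 50.9 and 26.1 in clones 7 and 8 and 3.19, 8.91 and 4.32 in clones 10, 11 and 12 (2.78, unadjusted p 0.00102). In each of these the vemurafenib clones were above all 3 others. By contrast COL3A1 had an arm log2 fold change of -0.05, TSPAN33 of -0.65 and CRYAB of -1.59, with unadjusted p of 0.968, 0.197 and 0.183.

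Small shifts also ran along chromosomes. The median over the genes of a chromosome was compared between the 6 libraries, with genes placed by GENCODE release 29, for 13827 of the genes tested. Chromosome 13 was lower in clone 9, with medians of -0.11, -0.20 and -0.12 in clone 9 and 0.14, 0.15 and 0.18 in clone 13, relative to the mean of the 6 libraries on the log2 scale. Chromosome 9 was higher, at 0.12, 0.10 and 0.12 in clone 9 and -0.15, -0.09 and -0.12 in clone 13. Chromosome 1 differed by -0.16, with 4 genes called higher and 38 lower of 1428, chromosomes 6 and 15 differed by 0.20 and 0.19, and chromosome 8 by -0.19. In 10 of 23 chromosomes, these 6 and chromosomes 3, 14, 17 and 21 with differences from -0.04 to 0.10, the libraries of the clones did not overlap, and in each the exact two-sided permutation p was 0.1, the smallest that 3 against 3 libraries allow, or 0.23 adjusted over 23 chromosomes.

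Windows of 50 neighbouring tested genes located the shifts, and 66 of 1279 overlapping windows had a median over 0.3 in size. On chromosome 9 the shift covered 210 genes in a row, CDC26 to NELFB, of which 192 (91.4%) were positive, with a median of 0.40. Against untreated cells the medians of this stretch were 0.02 in clone 9 and -0.38 in clone 13. On chromosome 13, 120 genes from TRPC4 to GPR18 had a median of -0.35, and both clones were below untreated cells, at -0.73 in clone 9 and -0.45 in clone 13. Chromosome 17 differed by only 0.04 as a whole, without overlap of the libraries, while adjoining stretches of 90 genes from SRP68P3 to TMEM98 and 110 genes from SPACA3 to MLX stood at 0.34 and 0.325. In the stretch of chromosome 9, 12 genes were called higher and 2 lower (6.67%, against 3.15% of all genes tested), and in that of chromosome 13 1 was called lower (0.833%). A further stretch of chromosome 9, 80 genes from ZNF484 to GNG10, had a median of 0.31, with 4 called higher and none lower (5%). On chromosome 6, 70 genes from IER3 to PSMB9 had a median of 0.29, with 5 called higher and 1 lower (8.57%). COL4A1 and COL4A2 rose in clone 9 although chromosome 13 as a whole was lower there. The part of these shifts in the calls of single genes was not tested.

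**Figure D5:**
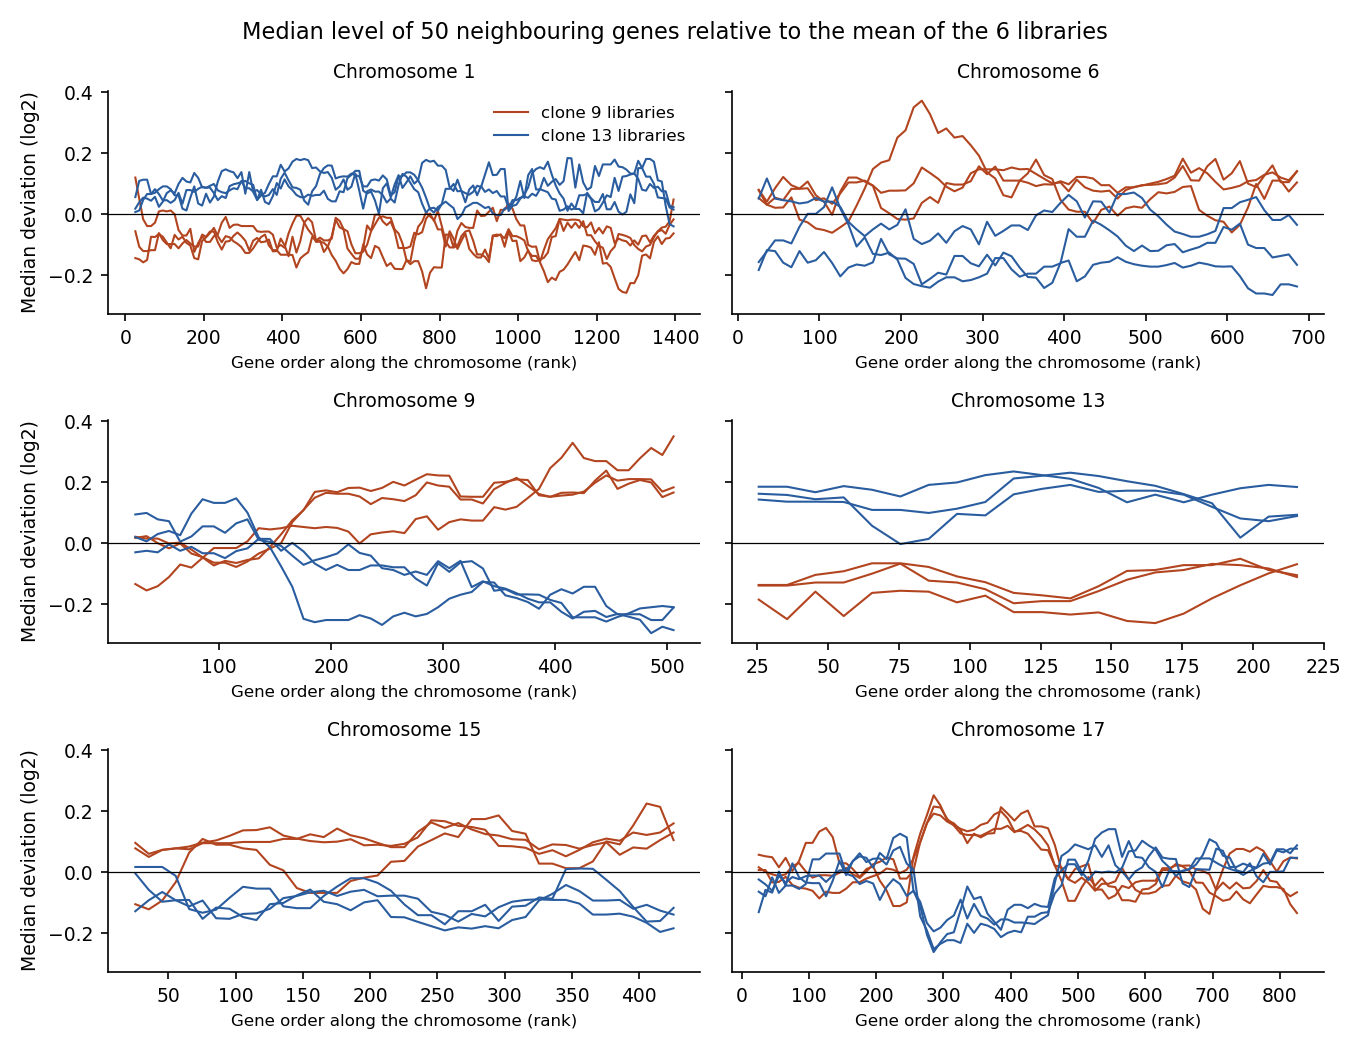
Lines give, for each library, the median level of 50 neighbouring genes relative to the mean of the 6 libraries (y axis, log2) along the order of genes on 6 chromosomes (x axis, rank), with clone 9 in red and clone 13 in blue. The lines of the clones part over the later ranks of chromosome 9, over all of chromosome 13 and over 1 stretch of chromosome 17, and meet again beyond it.

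Some called genes lay next to each other. Of 469 called genes with a chromosome, 84 (17.9%) had an adjacent tested gene called the same way, in 37 runs, of which 8 held 3 or more genes. Of all genes tested, 1.46% were called higher and 1.69% lower, but no share of neighbours to be had without any gathering was worked out. The count is therefore a description and does not show that called genes gather. MT2A, MT1F and MT1X formed 1 such run, and GALNT12, COL15A1 and TGFBR1 on chromosome 9 another, all higher in clone 9, with TGFBR1 lost on 2 omissions as given above. On chromosome 19, HAS1, a hyaluronan synthase, and the formyl peptide receptors FPR1, FPR2 and FPR3 were lower together, with log2 fold changes from -1.39 to -1.01. Of these only FPR1 stayed called in all omissions, the others being nearest to 0 without replicate 1 of clone 13, where HAS1 was -0.95, FPR2 -0.85 and FPR3 -0.76. FPR1, a chemotactic receptor of leukocytes, was 0.679, 1.04 and 0.978 scaled TPM in clone 9 and 3.85, 6.03 and 2.56 in clone 13. Another run of chromosome 19 joined the natural killer receptors KIR2DL1, KIR2DL4 and KIR2DS4 with FCAR, an Fc receptor for IgA. FCAR was 1.34, 0.841 and 1.53 in clone 9 and 12.0, 42.6 and 28.3 in clone 13 (-3.52 ± 0.40), and KIR2DL4 was 0.336, 0.320 and 0.406 in clone 9 and 2.35, 4.96 and 5.34 in clone 13. In FPR1, FCAR and KIR2DL4 the clones did not overlap, which for FCAR was required by its choice as a largest fall. The call of KIR2DS4 was lost without any 1 library other than replicate 1 of clone 13, nearest to 0 at -1.62 without replicate 3 of clone 13. The KIR genes are close copies between which reads may be divided. HSPA1A and HSPA1B, near-identical heat shock genes on chromosome 6, were both higher in clone 9, while the chaperone CRYAB was lower there. HSPA1A was 57.1, 62.4 and 59.3 in clone 9 and 26.2, 9.10 and 22.5 in clone 13, without overlap.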

How the data were processed

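RNA of 23 libraries was measured by poly(A) sequencing. The deposited table holds TPM values, a length-corrected share of transcripts, per gene, and each column sums to 1000000; kallisto and the hg19 build are named, without versions, per the submitters' processing notes. From there, a scaling factor per library was taken as a trimmed average of its log ratios, dropping 30% of ratios and 5% of levels on each side, and genes with at least 1 TPM in at least 2 libraries were kept, 15657 of 35438. limma 3.58.1 in R 4.3.3 was fitted to log2(scaled TPM + 1) over all 8 groups, so that they share 1 estimate of spread, with Benjamini-Hochberg adjustment over all genes tested. Fold changes of low genes are understated by the pseudocount of 1. Values after ± are SE for log2 fold changes and SD for levels.

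The test was tried on simulated data with normal noise, where for this pair 89% of changes of 1.5 and 99% of changes of 3 (log2) were called, with 2 false calls. Changes were set only in genes with a mean log2(scaled TPM + 1) of at least 3 in the pair, so these shares do not describe low genes. For the arm comparison 86% of changes of 3 and 98% of changes of 6 were called in the same genes, with 9 false calls. Each size was set in 100 genes, and the adjusted p depends on how many genes change. In the real arm fit limma did not call NTN4 at 3.38 (adjusted p 0.209). These shares therefore do not tell what the real arm comparison could find, and no change under 3 was tried there. Genes were named by a rule: a panel, the 12 largest rises and falls, and up to 4 called genes per list. The rises and falls were taken among called genes at 4 TPM or more in the higher clone. Only genes without overlap of the libraries of the 2 clones could enter them, so that separation was fixed by the choice. A further part for genes also called between arms named none. Other list members, genes given from outside a list, the genes of the arm comparison, genes at the threshold and runs of neighbours were chosen after their values were seen. The pair, members and lists were chosen with earlier results of these data known. Gene order is from GENCODE 29 (GRCh38) and promoters are from RefSeq, matched by symbol for 10208 of the genes tested. Python 3.11.15 and matplotlib 3.10.9 were used for the rest. Alternatives covered the pseudocount, scaling, filter, samples in the fit, a replicate block and each library left out. Of the Schwann and neuronal genes S100B is given, and a further result is not reported here.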

Additional observations from a re-analysis of the deposited data

Results flagged for a closer look

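In 2 genes the clones moved in opposite directions from untreated cells, with both moves and the difference between the clones past the thresholds. TSPAN33 had a log2 fold change of 1.45 in clone 9 and -2.18 in clone 13 against untreated cells, a difference of 3.63. ID4 had 1.15 in clone 9 and -1.12 in clone 13, a difference of 2.27. Both comparisons share the untreated libraries, and the difference was tested between the clones themselves with limma.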

How the results depend on the processing

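The pair stayed the one with the fewest calls among pairs of different arms in all 9 settings that were counted for every such pair. A pseudocount of 0.1 gave 415 genes lower in clone 9, and a pseudocount of 5 gave 99 higher and 87 lower, 186 for the pair. With no minimum fold, 907 were higher and 892 lower. Leaving out each library gave 201 to 242 higher and 221 to 296 lower, and 401 to 416 of the 493 genes were shared. Deposited values without scaling gave 203 higher and 289 lower and moved the median of all genes to -0.05. Same-numbered libraries of the clones did not deviate together (r of -0.085, -0.342 and -0.231). Deviations from the mean of a clone are tied to each other, so these values cannot show whether the numbers pair the libraries. With a replicate block 230 were higher and 273 lower. With clone 10 left out, a choice made after seeing the data, 234 were higher and 282 lower. In the arm comparison, leaving out each clone gave 0 to 128 calls (128 without clone 11) and an equal sign for 58.2% to 68%.

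With deposited values the chromosome medians were -0.342 (13), 0.191 (9), 0.152 (15), -0.227 (8) and -0.204 (1), and with at least 5 TPM in 3 libraries they were -0.359 (13), 0.289 (9), 0.232 (15) and -0.181 (1). Leaving out each library gave -0.316 to -0.267 for chromosome 13 and 0.175 to 0.216 for chromosome 15. Among genes that were not called, the omissions ran from -0.131 to 0.111 for MKI67, with 0.013, 0.033 and 0.004 among them, from -0.052 (without replicate 1 of clone 13) to 0.422 for AXL, from -0.162 (without the same library) to 0.331 for WNT5A and from -0.261 (without replicate 3 of clone 13) to 0.372 for CDKN1A. The cause was not tested for any of these. Sequencing depth is unknown from TPM, so no counting error is given for low genes.

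Of the 493 calls, 23 were lost with a pseudocount of 0.1, 309 with one of 5, 31 with deposited values, 52 with no filter and 44 when only the 6 libraries were fitted. Among genes named above, a pseudocount of 0.1 ended the calls of COL4A1, COL4A2, COL1A2, C4A, EGR2, HGF, NKD2, TMEM47 and TWIST2 (adjusted p of 0.0522 for HGF to 0.201 for TWIST2), and deposited values those of C4A, EGR2, HGF, IFIT2, RPL23, TMEM47 and TWIST2. No filter ended those of C4A, COL1A2, EGR2, FPR3, HGF, IFIT2, NKD2, PITX1, S100A4 and TMEM47 (adjusted p of 0.0531 for PITX1 to 0.0977 for EGR2). Fitting only the 6 libraries ended those of EPHA4, HGF, IFIT2, MX2, NKD2, PCDHGC5, PITX1, TMEM47 and TWIST2 (adjusted p of 0.0783 for TWIST2 to 0.19 for HGF). A pseudocount of 5, which lowers the fold of low genes, put ADAM19, ADAMTS12, APLP1, BATF, BMP2, BMP4, C4A, CDH2, CDH6, CDH9, COL5A3, CT45A2, EGR2, EPHA4, FPR1, FPR2, FPR3, GALNT12, HAS1, IFIT2, KIR2DL1, KIR2DL4, KIR2DS4, MAGEA1, MAGEA12, MAGEB6, NKD2, OASL, PCDH7, PCDHGC5, PDPN, S100A4, SERPING1, SMAD6, SPRY4, TGFBR1, TMEM47 and TWIST2 under the minimum fold.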
